A study of Mus musculus with 18 samples.

Results

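The 7 genes described here make glutathione, conjugate it to other molecules, or remove reactive oxygen species and haem: Gclc, Gclm, Gstm1, Gsta4, Cat, Sod2 and Hmox1. They were chosen by name, as all probe sets that the array's annotation pairs with 1 of these symbols. This gave 9 probe sets of the 12488 on the array, and 7 genes of the 8252 it names. All 9 probe sets passed the filter on low signal that 7134 probe sets passed. Gstm1 and Cat have 2 probe sets each, and the probe set with the higher mean over all arrays stands for the gene.

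The samples are cultures of C3H10T1/2, an established clonal mouse fibroblast line that can be turned towards fat cells, so all 18 arrays carry RNA of 1 cell line. By the labels each array was hybridised with mRNA pooled from 6 cultures, which were harvested 24 h after they became confluent and 72 h after serum was last added. The 8 groups are all combinations of 3 treatments. UT, whose letters the labels do not spell out, is the group for which no EGF, TCDD or IDMB is listed. EGF is epidermal growth factor at 10 nM for 24 h. TCDD is dioxin, an agonist of the aryl hydrocarbon receptor, at 10 nM for 72 h. IDMB is an adipogenic mix given for 24 h, with 1 µM BRL49653 (rosiglitazone, an agonist of the receptor PPARG), 1 µM dexamethasone (a glucocorticoid), 0.5 µM IBMX (a phosphodiesterase inhibitor) and 10 µg/mL insulin. EGF+TCDD, IDMB + EGF, IDMB + TCDD and IDMB + EGF + TCDD combine them at the same doses and times. UT and IDMB have 3 arrays each and the other 6 groups have 2. The mix was given whole, so its 4 components cannot be told apart. The labels do not say whether the pools came from separate experiments, so p-values measure the spread between these pools.

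Glutathione is a small thiol peptide that keeps the cell's interior reduced. The enzyme glutamate-cysteine ligase, made of a catalytic subunit (Gclc) and a modifier subunit (Gclm), carries out the rate-limiting step of its synthesis, and glutathione transferases such as Gstm1 and Gsta4 use it to tag reactive molecules for removal. Sod2 turns superoxide into hydrogen peroxide in mitochondria, catalase breaks hydrogen peroxide down in peroxisomes, and Hmox1 cleaves haem. Many of these genes are known targets of the transcription factor NRF2 (Nfe2l2), which pairs with small Maf proteins on antioxidant response elements, while TCDD acts through the aryl hydrocarbon receptor on xenobiotic response elements. Making fat cells is known to involve reactive oxygen species both as signals and as by-products.

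The stretch just before the start of the gene is shown for Gclm, Cat and Sod2, because these are the matched genes that were called for the mean IDMB effect in the results that follow and the elements named above can be looked for there. RefSeq's promoter table for mouse build GRCm38.p6 matched 4 of the 7 genes, and Gclc, Gsta4 and Hmox1 were not matched. The window of Gstm1, which was called with IDMB in UT alone, is not shown. The Gclm window is chr3:122245307-122245486 on the plus strand (180 bases), that of Cat is chr2:103485154-103485403 on the minus strand (250 bases), and that of Sod2 is chr17:13007589-13007838 on the plus strand (250 bases). Each is written 5′ to 3′ and ends at the base before the annotated start. Capitals mark every match on either strand to GCGTG (core of the xenobiotic response element), TGACNNNGC (core of the antioxidant response element) or CCAAT.
Gclm: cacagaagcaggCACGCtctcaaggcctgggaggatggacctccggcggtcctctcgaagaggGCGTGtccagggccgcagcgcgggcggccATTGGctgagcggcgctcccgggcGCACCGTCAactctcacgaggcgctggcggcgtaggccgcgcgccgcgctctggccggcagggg
Cat: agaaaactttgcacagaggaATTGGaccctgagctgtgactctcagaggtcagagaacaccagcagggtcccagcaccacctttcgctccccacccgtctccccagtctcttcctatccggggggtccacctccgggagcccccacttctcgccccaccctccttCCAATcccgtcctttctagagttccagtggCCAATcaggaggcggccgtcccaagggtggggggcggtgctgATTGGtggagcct
Sod2: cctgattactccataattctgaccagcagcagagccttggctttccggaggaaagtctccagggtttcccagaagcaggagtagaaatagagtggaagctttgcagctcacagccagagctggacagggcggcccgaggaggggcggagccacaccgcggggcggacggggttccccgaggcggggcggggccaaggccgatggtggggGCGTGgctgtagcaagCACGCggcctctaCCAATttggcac

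The Gclm window held 1 match to TGACNNNGC, whose first base lies 64 bases before the start, on the opposite strand. It also held 2 matches to GCGTG and 1 to CCAAT. The Cat window held 4 matches to CCAAT, the nearest beginning 13 bases before the start, and neither GCGTG nor TGACNNNGC. In the Sod2 window there were 2 matches to GCGTG, beginning 41 and 25 bases before the start, and 1 to CCAAT. No match overlapped another. Of 32851 promoter windows, TGACNNNGC was found in 6.65% over 180 bases and 10.2% over 250 bases, GCGTG in 6561 windows over 180 bases and in 28.2% over 250 bases, and CCAAT in 25.0% and 33.8%. TGACGTCA (the cyclic AMP response element), a direct repeat PPAR element and the palindromic glucocorticoid response element were also searched on both strands, and none of the 3 was in these windows (0.584%, 0.0213% and 0.00913% of windows of 180 bases, and 1.55%, 0.0335% and 0.00913% of those of 250). Such matches describe the letters only.

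The values are the deposited signal intensities on a linear scale, and changes are log2 differences of floored values from limma, fitted over all 18 arrays. A difference is called higher or lower at a Benjamini-Hochberg adjusted p under 0.05 over the 7134 probe sets. The mean effect of a treatment is the average of its 4 effects, 1 in each background of the other treatments. On average over backgrounds the genes used to check the treatments were called higher with them. Cyp1a1 and Tiparp, targets of the aryl hydrocarbon receptor, were higher with TCDD (mean log2 2.51 and 2.46), Dusp6, a target of EGF signalling, was higher with EGF (2.12), and Fkbp5, a glucocorticoid target, was higher with IDMB (3.26). By background Cyp1a1 was called for TCDD in UT and EGF but not in IDMB (log2 0.75, limma adjusted p = 0.503, arrays overlapping) or IDMB + EGF (2.74, 0.110), and Tiparp was called in IDMB (1.15, 0.0456) but not in IDMB + EGF (1.31, 0.192). Dusp6 was called for EGF in UT but not in the other backgrounds (log2 1.53 to 1.87). Tiparp was also called higher with IDMB in UT (log2 2.27, limma adjusted p = 4.98e-05), and its TCDD by IDMB interaction was called (-2.47, 0.00714). Fkbp5 was also called higher in UT with TCDD (1.48, 0.0144) and with EGF (1.32, 0.0279). Tiparp and Fkbp5 thus did not mark 1 treatment alone. Fibroblast markers passed the filter in 9 of 11 cases, with a summed intensity of 457146.5 to 502612.5 on UT arrays, 253932.5 to 286649.3 on IDMB arrays and 268738.2 to 354790.3 on TCDD arrays. Of 7 adipocyte markers 5 are on the array and 4 passed, and the sum over the 5 was 3296 to 5046 in UT and 6122 to 8119.8 in IDMB. Macrophage markers passed in 2 of 7 cases (Csf1r and Cd14), while Lyz2 was at the floor in every group mean. The sum over all 7 macrophage markers was 6437 to 7427 in UT and 10416.9 to 12444.8 in TCDD. Each of these sums takes in every marker of its kind on the array, whether or not it passed the filter. Epithelial and endothelial markers passed in 1 of 5 cases each, and skeletal muscle markers in 3 of 5. The part of these sums in the results was not tested, and a change in the number of cells of a kind cannot be told apart here from a change in RNA per cell.

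**Figure D1:**
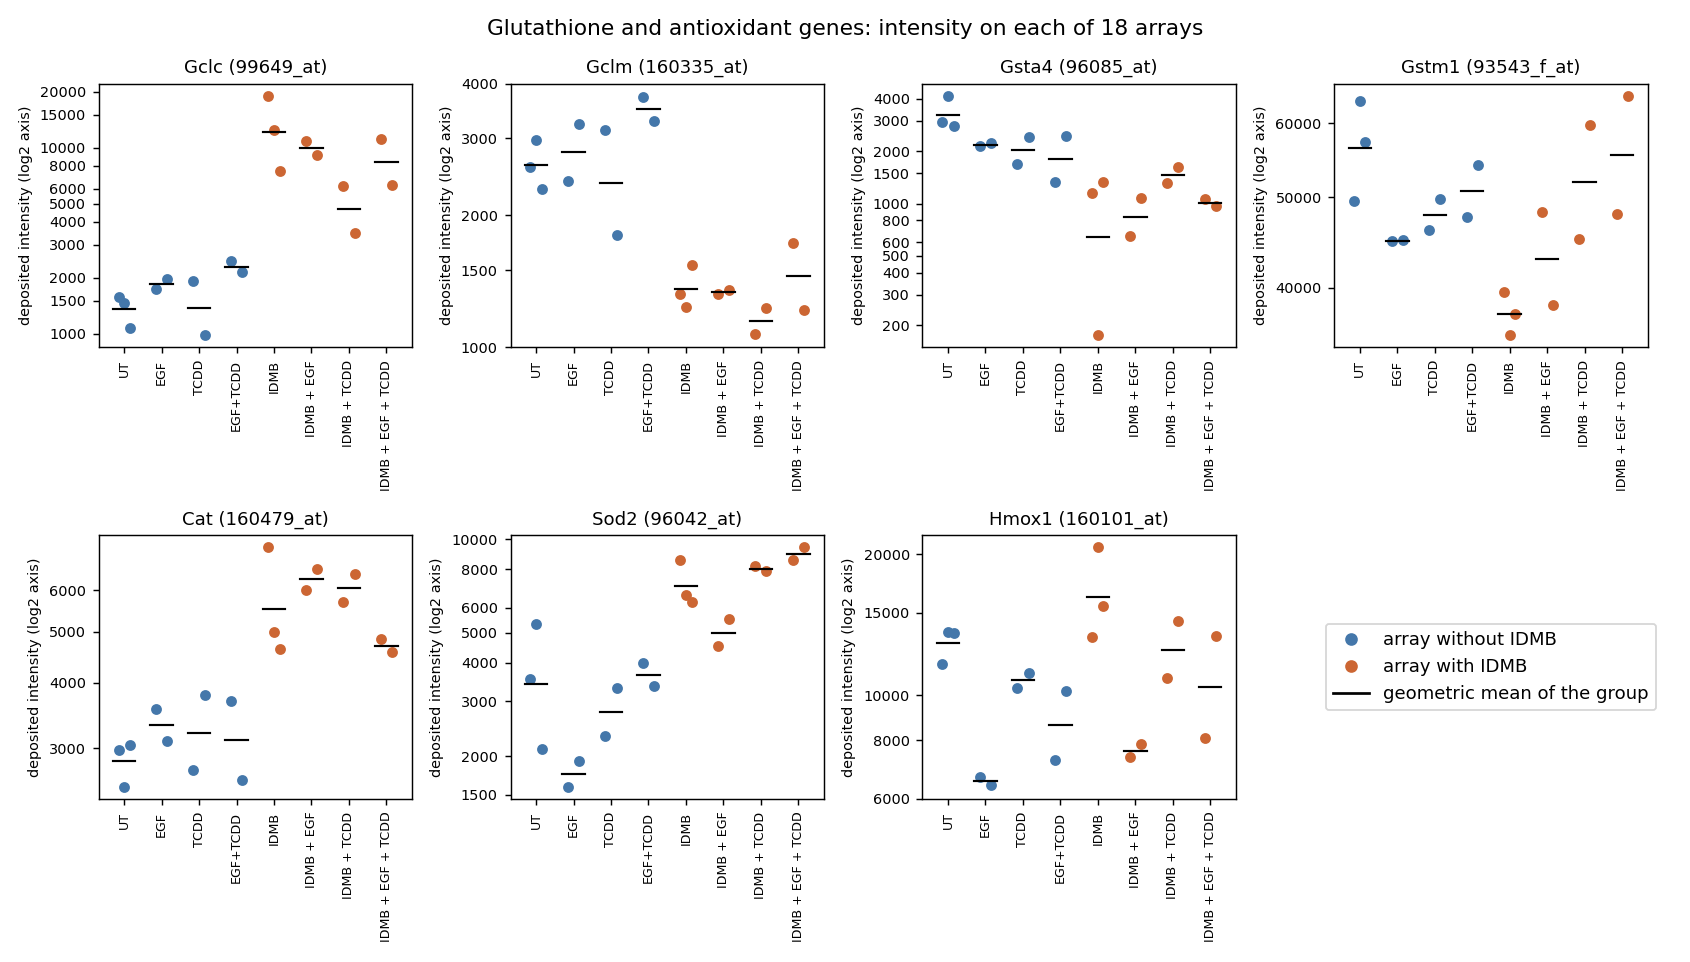
Deposited intensity of each of the 7 genes on each of the 18 arrays (points, log2 axis, 1 panel per gene), by treatment group, with the geometric mean of each group as a bar. Arrays with IDMB (orange) lie wholly above the arrays without it (blue) for Gclc and Cat and wholly below for Gclm.

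The adipogenic mix was the treatment for which most of the 7 genes were called. Averaged over the 4 backgrounds, 3 rose (Gclc, Sod2 and Cat), 2 fell (Gsta4 and Gclm), and Gstm1 and Hmox1 were not called. Among all probe sets tested, 34.1% were called for this effect, 15.5% higher and 18.6% lower. The median absolute log2 difference was 1.08 over the 7 genes and 0.26 over all probe sets tested, and the median signed difference was 0.26 against -0.04. These medians and shares describe the 7 genes and are no test of them as a set.

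Gclc, the catalytic subunit, had the largest change of the 7 with the mix. Its intensity was 1578, 1461 and 1077 in UT and 19024, 12394 and 7522.5 in IDMB. The group means were 1372 ± 262 and 12980.2 ± 5773 (SD, n = 3 each), and no array of one group reached the other. In the other backgrounds without the mix it was 1734 and 1955 with EGF, 1922 and 981 with TCDD, and 2455 and 2131 with EGF+TCDD. With the mix it was 10898 and 9070.2 in IDMB + EGF, 6238 and 3481 in IDMB + TCDD, and 11052 and 6313 in IDMB + EGF + TCDD. Even the lowest array with IDMB, at 3481, lay above the highest without it, at 2455. Ordered by mean log2 the groups ran UT, TCDD, EGF, EGF+TCDD, IDMB + TCDD, IDMB + EGF + TCDD, IDMB + EGF and IDMB. The arrays of neighbouring groups overlapped from UT to EGF and from IDMB + EGF + TCDD to IDMB, while EGF+TCDD and IDMB + TCDD each stood clear of both neighbours.

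The mean IDMB effect on Gclc was 4.95-fold (log2 2.31, SE 0.194, limma adjusted p = 1.59e-07). It was 8.94-fold in UT (log2 3.16, SE 0.331, adjusted p = 6.83e-06), 5.40-fold in EGF (adjusted p = 0.000939), 3.65-fold in EGF+TCDD (0.0104) and 3.39-fold in TCDD (0.00971). Counting all 7 genes, 3 were called higher and 3 lower in UT, where 14.1% of probe sets were called (6.66% higher and 7.42% lower). In TCDD 3 were higher and 1 lower, against 12.8% of probe sets called (6.53% and 6.28%), in EGF again 3 and 1, against 10.8% (5.52% and 5.27%), and in EGF+TCDD 2 and 1, against 6.50% (3.45% and 3.06%). Outside UT each effect rests on 2 arrays against 2, and with 1 array left out the share of all probe sets called was as low as 4.29% in TCDD (without IDMB + TCDD 2), 4.32% in EGF (without EGF 2) and 2.50% in EGF+TCDD (without IDMB + EGF + TCDD 1). The call in TCDD was lost without TCDD 2 (adjusted p = 0.125) or IDMB + TCDD 1 (0.0969), and that in EGF+TCDD without EGF+TCDD 1 (0.0517), EGF+TCDD 2 (0.0906) or IDMB + EGF + TCDD 1 (0.14).

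Gclm, the modifier subunit of the same enzyme, moved the opposite way with the mix. It stood at 2584, 2968 and 2302 in UT, 2393 and 3240.2 in EGF, 3131 and 1803 in TCDD, and 3726 and 3286 in EGF+TCDD. With IDMB it stood at 1321, 1233 and 1539, with IDMB + EGF at 1326 and 1353, with IDMB + TCDD at 1072 and 1229, and with IDMB + EGF + TCDD at 1730.4 and 1218. All 9 arrays with the mix were therefore lower than all 9 without it, the closest pair being 1730.4 and 1803. From low to high the groups were IDMB + TCDD, IDMB + EGF, IDMB, IDMB + EGF + TCDD, TCDD, UT, EGF and EGF+TCDD. Arrays overlapped between neighbours from IDMB + EGF to IDMB + EGF + TCDD and from TCDD to EGF, and not between the other neighbours.

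Averaged over backgrounds Gclm was 2.11-fold lower with IDMB (log2 -1.08, SE 0.131, limma adjusted p = 9.67e-06). The effect was 1.92-fold in UT (log2 -0.94, adjusted p = 0.00873), 2.07-fold in TCDD (0.0195), 2.08-fold in EGF (0.0205) and 2.41-fold in EGF+TCDD (0.0102), each lower with the mix. The interactions of IDMB with EGF (adjusted p = 0.839) and with TCDD (0.943) were not called for Gclm. With 2 arrays a side, the calls in TCDD, EGF and EGF+TCDD were each lost in 3 of 4 fits with 1 array left out. The adjusted p without TCDD 1, IDMB + TCDD 1 or IDMB + TCDD 2 was 0.228, 0.103 and 0.0741. It was 0.212, 0.0921 and 0.068 without EGF 2, IDMB + EGF 1 or IDMB + EGF 2, and 0.0932, 0.0534 and 0.127 without EGF+TCDD 1, EGF+TCDD 2 or IDMB + EGF + TCDD 2. When each array was scaled to the same median the call in TCDD was lost (adjusted p = 0.0681). With only the groups compared in the fit, the calls in TCDD (0.0848) and EGF (0.0603) were lost.

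**Figure D2:**
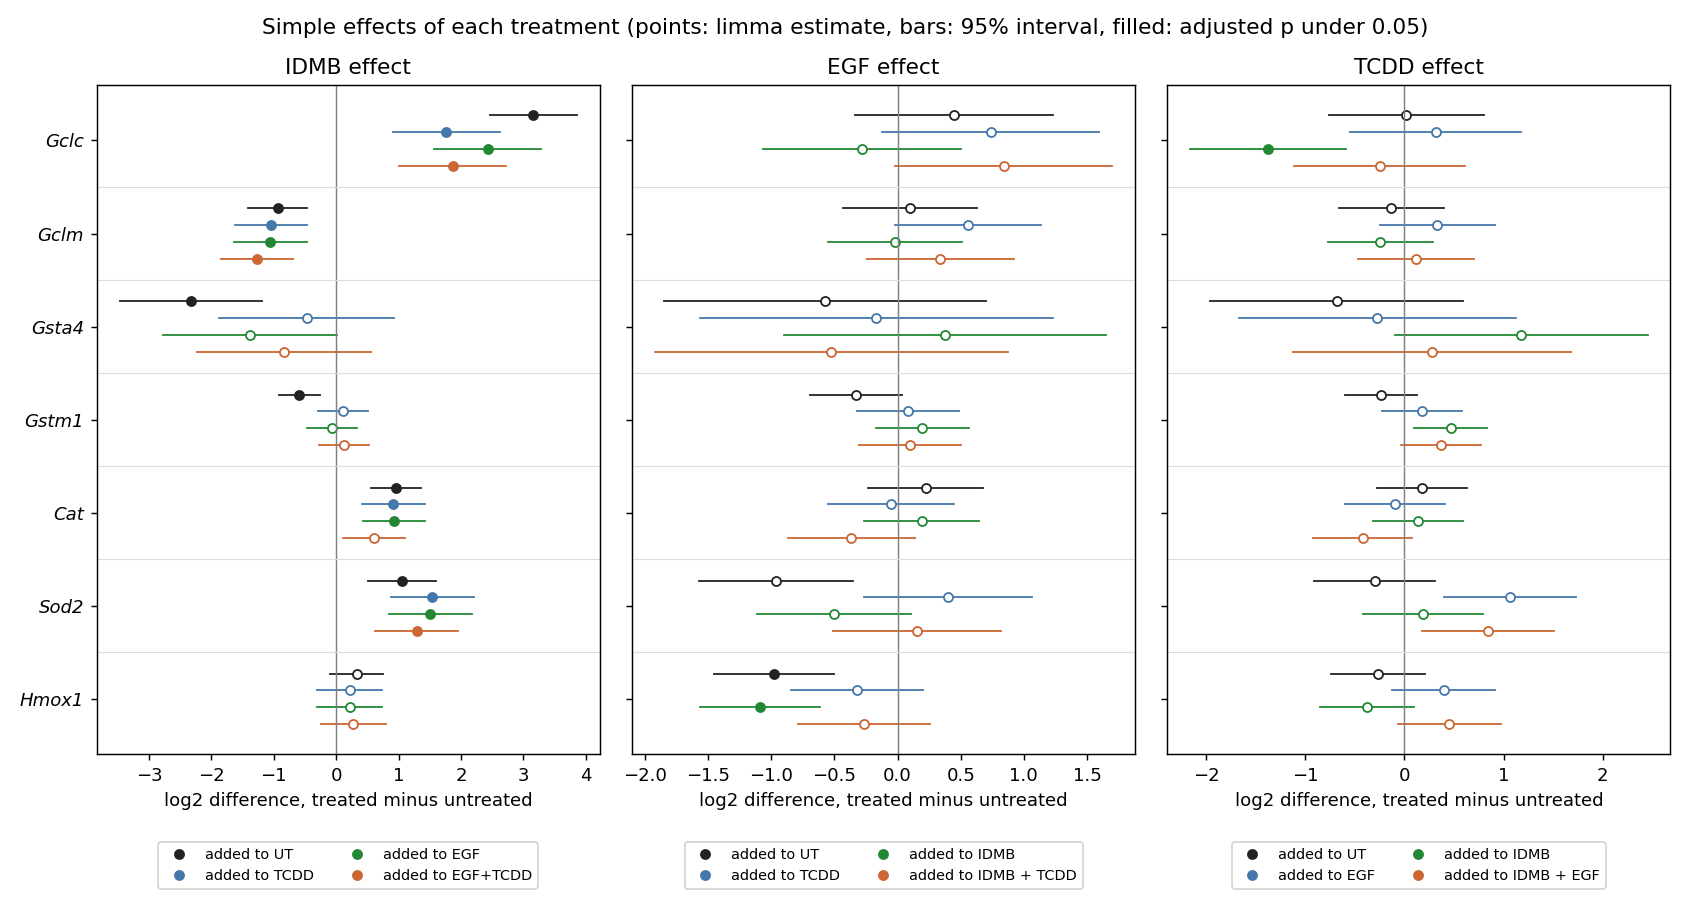
Log2 difference of each gene for IDMB, EGF and TCDD (1 panel each) in the 4 backgrounds of the other treatments. Points are limma estimates, bars 95% intervals, and filled points passed an adjusted p of 0.05. Gclc lies to the right of 0 and Gclm to the left in all 4 backgrounds of IDMB, and the filled points of EGF are those of Hmox1 in UT and in IDMB.

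Gsta4, an alpha class transferase that acts on reactive aldehydes from oxidised lipids, was lower with the mix, with wide spread. UT arrays gave 2941, 4179 and 2799.9, EGF arrays 2145 and 2224, TCDD arrays 1699 and 2419.5, and EGF+TCDD arrays 1340.2 and 2434. In IDMB the values were 1149.8, 175 and 1334, in IDMB + EGF 653 and 1070.5, in IDMB + TCDD 1309 and 1624, and in IDMB + EGF + TCDD 1064 and 966. Array IDMB 2, at 175, was far below its fellows and close to the floor of 143.5. By mean log2 the order was IDMB, IDMB + EGF, IDMB + EGF + TCDD, IDMB + TCDD, EGF+TCDD, TCDD, EGF and UT, and neighbours overlapped except at IDMB + EGF + TCDD against IDMB + TCDD and EGF against UT. The arrays with and without the mix overlapped only through IDMB + TCDD 2 (1624) and EGF+TCDD 1 (1340.2). The mean effect was 2.39-fold lower (log2 -1.26, SE 0.316, limma adjusted p = 0.00563). In UT it was 5.04-fold lower (log2 -2.33, SE 0.538, adjusted p = 0.00702), a size that leaving out IDMB 2 cut to -1.39 and leaving out another array took as far as -2.86, with the call kept each time. In EGF (log2 -1.39, adjusted p = 0.205), TCDD (-0.48) and EGF+TCDD (-0.83) the difference was not called.

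Gstm1 is a mu class transferase and one of a family of near-identical genes. Its main probe set bears the array maker's mark for sets that match several family members, so its signal may not be of Gstm1 alone. The signal was 49519, 63473 and 57370.3 in UT and 39597, 35606 and 37541 in IDMB, with no overlap. Elsewhere it was 44911 and 44999.5 in EGF, 46112.5 and 49815 in TCDD, 47677 and 54213 in EGF+TCDD, 48207 and 38320 in IDMB + EGF, 45097 and 59792 in IDMB + TCDD, and 47984 and 64254 in IDMB + EGF + TCDD. IDMB was the lowest group and UT the highest, and all neighbours in the order overlapped except EGF and TCDD. In UT, Gstm1 was lower with the mix (log2 -0.59, SE 0.155, limma adjusted p = 0.0162), and this was not called once UT 2 (0.0761) or IDMB 2 (0.0605) was left out. Averaged over backgrounds the difference was -0.10 (SE 0.0908, adjusted p = 0.417) and was not called. The second Gstm1 probe set ran from 969 to 2685 over the 18 arrays and was called in none of the 18 comparisons.

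Of the enzymes that act on superoxide and peroxide, Sod2 and Cat were both higher with the mix. For Sod2 the UT arrays read 3552, 5317 and 2111, the EGF arrays 1591 and 1934.5, the TCDD arrays 2315 and 3320, and the EGF+TCDD arrays 3998 and 3356. The IDMB arrays read 8554, 6586 and 6293, IDMB + EGF 4532 and 5511, IDMB + TCDD 8193.5 and 7892, and IDMB + EGF + TCDD 8553.5 and 9407. Only 1 array without the mix, UT 2 at 5317, lay above any array with it, namely IDMB + EGF 1 at 4532. Both with and without the mix, the group with EGF but not TCDD was the lowest, and IDMB + EGF + TCDD was the highest of the 8. By mean log2, TCDD, UT and EGF+TCDD overlapped as neighbours, as did IDMB and IDMB + TCDD.

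The mean IDMB effect on Sod2 was 2.54-fold (log2 1.35, 95% interval 1.03 to 1.67, limma adjusted p = 3.78e-06). By background it was 2.07-fold in UT (log2 1.05, adjusted p = 0.0102), 2.90-fold in TCDD (0.00479), 2.85-fold in EGF (0.00515) and 2.45-fold in EGF+TCDD (0.0210). The call in UT held without each of its 6 arrays. The call in TCDD was lost without TCDD 1 (adjusted p = 0.0562) and that in EGF without EGF 1 (0.0507). The call in EGF+TCDD was lost without any 1 of its 4 arrays, at 0.0741 and 0.146 without EGF+TCDD 1 and 2 and 0.0914 and 0.132 without IDMB + EGF + TCDD 1 and 2.

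Cat, catalase, read 2976.5, 2530.2 and 3038 in UT, 3557 and 3091 in EGF, 2721 and 3790.3 in TCDD, and 3687 and 2612 in EGF+TCDD. With the mix it read 7246, 5005 and 4631 in IDMB, 6021 and 6598 in IDMB + EGF, 5703 and 6444 in IDMB + TCDD, and 4835 and 4582 in IDMB + EGF + TCDD. Every array with the mix was above every array without it (lowest 4582, highest 3790.3). The 4 groups without the mix overlapped as neighbours, and so did the 4 with it. The mean effect was 1.80-fold (log2 0.85, SE 0.113, limma adjusted p = 2.39e-05), with 1.94-fold in UT (adjusted p = 0.00263), 1.89-fold in TCDD (0.0183) and 1.90-fold in EGF (0.0184). In EGF+TCDD the log2 difference of 0.60 was not called (adjusted p = 0.149). The call in TCDD was lost without TCDD 1 (0.171), IDMB + TCDD 1 (0.0515) or IDMB + TCDD 2 (0.134), and that in EGF without EGF 1 (0.0513), EGF 2 (0.149), IDMB + EGF 1 (0.0617) or IDMB + EGF 2 (0.0862). A second Cat probe set, which bears the same array maker's mark as the main Gstm1 set, ran from 1651 to 3883 and was called in no comparison. Its mean IDMB difference was -0.15 where the main one gave 0.85, so the probe sets of Cat disagree.

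For actin the array has control probe sets at both ends of the transcript, and their 3′ to 5′ ratio, a measure of how complete the labelled RNA is, also moved with the mix. It was 1.23 to 1.93 on arrays without IDMB and 1.80 to 3.80 on arrays with it. With this ratio as a covariate, an alternative chosen after the data were seen, Gclc (log2 2.13, limma adjusted p = 0.00864) and Gclm (-1.11, 0.0409) were still called for the mean IDMB effect. The estimates for Sod2 (1.08, 0.0774), Cat (0.75, 0.108) and Gsta4 (-1.31, 0.369) kept their direction, and their calls were lost. Over all probe sets tested, 448 (6.28%) were called for the mean IDMB effect in this fit, against 34.1% without the ratio. By background, Gclm lost its IDMB call in this fit in UT (limma adjusted p = 0.101), TCDD (0.183), EGF (0.0901) and EGF+TCDD (0.234). Gclc lost its call in TCDD (0.186) and EGF+TCDD (0.344). These estimates of Gclm and Gclc kept their direction. The part of RNA quality in the changes of all these genes was not tested beyond this fit.

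**Figure D3:**
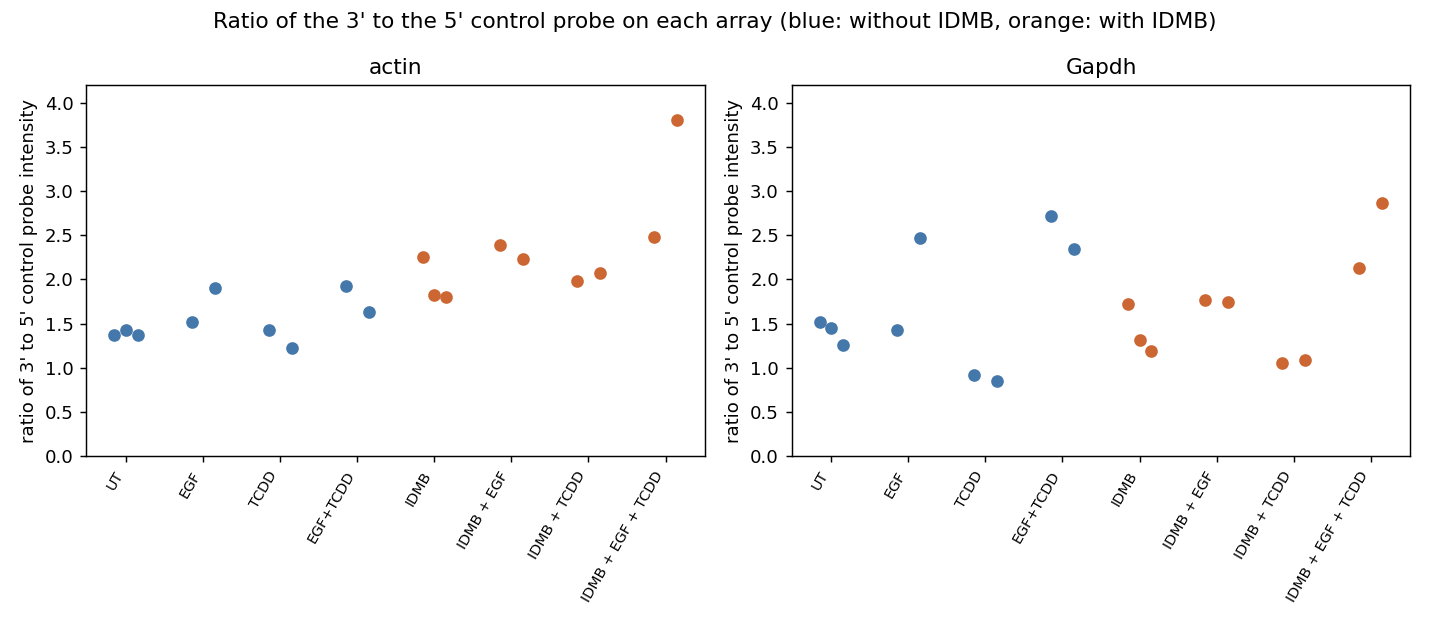
Ratio of the intensity of the 3′ to that of the 5′ control probe set for actin and Gapdh (1 panel each, linear axis from 0) on each of the 18 arrays, by group. The actin ratio was 1.80 or more on all arrays with IDMB (orange), and the Gapdh ratio was 1.43 or more on all arrays with EGF.

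For the mean EGF effect 1 of the 7 genes was called. Hmox1, the inducible haem oxygenase, was 1.58-fold lower with EGF on average (log2 -0.66, SE 0.118, limma adjusted p = 0.00263), while 13.1% of all probe sets were called for that effect and 6.04% were called lower. The 13.1% fell as far as 6.55% with 1 array left out (TCDD 2). UT arrays read 11643, 13661 and 13597 and EGF arrays 6690.1 and 6413.5. IDMB arrays read 13279, 20701 and 15491 and IDMB + EGF arrays 7370 and 7856. In both pairs all arrays with EGF were below all arrays without it.

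Where TCDD was present too, the Hmox1 values lay closer together. They were 10371 and 11157 in TCDD against 7274 and 10198 in EGF+TCDD, and 10860.1 and 14366.5 in IDMB + TCDD against 8108 and 13359 in IDMB + EGF + TCDD. By background, the EGF effect was 1.97-fold lower in UT (log2 -0.98, limma adjusted p = 0.0206, with 6.17% of probe sets called, 2.58% lower) and 2.13-fold lower in IDMB (log2 -1.09, adjusted p = 0.0128, 3.80% called, 1.88% lower). In TCDD it was -0.32 (adjusted p = 0.517) and in IDMB + TCDD -0.26 (0.728), neither called. The difference between the backgrounds with and without TCDD, the TCDD by EGF interaction, was 0.74 (SE 0.235) for Hmox1 and missed the threshold (adjusted p = 0.0825), and it was 0.0396 without IDMB + EGF + TCDD 1 and 0.0276 with the replicate number as a block. The call in UT was lost without UT 2 (0.0819), EGF 1 (0.0974) or EGF 2 (0.162), and that in IDMB without IDMB 2 (0.0558) or IDMB + EGF 1 (0.12). The share of all probe sets called fell too, for EGF in UT to 1.47%, 1.60% and 0.196% without UT 2, EGF 1 and EGF 2, and for EGF in IDMB to 1.67% and 0.421% without IDMB 2 and IDMB + EGF 1.

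The 3′ to 5′ ratio of the Gapdh control probe set was 0.854 to 1.73 on arrays without EGF and 1.43 to 2.86 on arrays with it. With that ratio as a covariate the mean EGF difference of Hmox1 was -0.60 (limma adjusted p = 0.600), and with the actin ratio -0.74 (0.188), so that its direction was kept while its call was lost. Under either covariate 0 of 7134 probe sets were called by limma for the mean EGF effect, against 935 without, and the check gene Dusp6 lost its call too (0.503 and 0.183). The part of RNA quality in the Hmox1 result was not tested beyond these fits. For IDMB the Hmox1 difference was not called (mean log2 0.26, SE 0.118, adjusted p = 0.105). It passed without IDMB + EGF + TCDD 1 (0.0281), with arrays scaled to the same median (log2 0.32, 0.0396) and with the replicate number as a block (0.0392). Ordered by mean log2 the groups ran EGF, IDMB + EGF, EGF+TCDD, IDMB + EGF + TCDD, TCDD, IDMB + TCDD, UT and IDMB, and all neighbours but EGF and IDMB + EGF overlapped.

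The other 6 genes were not called for EGF in any background. Sod2 came closest, with a log2 difference of -0.96 in UT (SE 0.287, limma adjusted p = 0.0586). Leaving out UT 3, the lowest UT array at 2111, brought this to 0.00599. No gene of the 7 was called for EGF in TCDD, where 3.50% of probe sets were called, or in IDMB + TCDD (0.280%), and 0 of the 7 had an unadjusted limma p under 0.05 there.

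For the mean effect of TCDD, given for 72 h, none of the 7 genes was called, while 5.54% of all probe sets were. The 7 mean differences ran from -0.32 (Gclc) to 0.45 (Sod2) on the log2 scale, with a median absolute size of 0.12 against 0.15 over all probe sets tested. At an unadjusted limma p under 0.05, 2 of the 7 genes passed, Sod2 and Gstm1 (log2 0.19). Sod2 had an adjusted p of 0.104 (limma), and 0.0260 without UT 2. None was called by limma in UT (7.68% of probe sets called), in EGF (0.280%) or in IDMB + EGF (0.364%), where 0, 1 and 1 of them had an unadjusted p under 0.05, both times Sod2. The Gapdh ratio was 0.919 and 0.854 on the TCDD arrays and 1.25 to 1.52 on the UT arrays. With that ratio as a covariate 0.505% of probe sets were called for TCDD in UT.

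In IDMB, where 6.59% of probe sets were called for TCDD and 3.53% were lower, Gclc was lower with TCDD. The 3 IDMB arrays at 19024, 12394 and 7522.5 were all above the 2 IDMB + TCDD arrays at 6238 and 3481. This was a 2.60-fold fall (log2 -1.38, SE 0.370, limma adjusted p = 0.0351). It was lost without IDMB 1 (0.0922), IDMB 2 (0.0916) or IDMB + TCDD 2 (0.311). Without IDMB 2, IDMB + TCDD 1 or IDMB + TCDD 2 the share of all probe sets called fell to 3.88%, 2.73% and 2.12%. The Gclc call was also lost with no filter on low values (0.119), with arrays scaled to the same median (0.0536), without the trend in the variance (0.0608), with only these 2 groups in the fit (0.113), and with the Gapdh control ratio as a covariate (0.149). The summed adipocyte markers were 6122 to 8119.8 on the IDMB arrays and 2737.5 to 4076.5 on the IDMB + TCDD arrays, and their part in this difference was not tested. In IDMB + EGF the Gclc arrays with and without TCDD overlapped (log2 -0.25). The TCDD by IDMB interaction of Gclc was -0.98 (SE 0.388, adjusted p = 0.565), and 0.112% of probe sets were called for it. No gene of the 7 was called for that interaction, where 2 had an unadjusted limma p under 0.05 (Gclc and Gstm1), or for EGF by IDMB (0.126% called), where 0 did.

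The TCDD by EGF interaction, for which 4.47% of probe sets were called, was positive for Sod2 at 1.01 (SE 0.301, limma adjusted p = 0.0673). It passed without UT 3 (0.00938). None of the 7 was called for this interaction in the fit without a block, and 2 had an unadjusted p under 0.05 (Sod2 and Hmox1). With the replicate number as a block 3 were called by limma, Sod2 (log2 1.23, adjusted p = 0.0105), Hmox1 (0.74, 0.0276) and Gclc (0.96, 0.0388), although the numbers were not taken to pair the samples. The block also raised the share of all probe sets called for this interaction, from 4.47% to 8.37%. Sod2 read 1591 and 1934.5 in EGF against 3998 and 3356 in EGF+TCDD, and 4532 and 5511 in IDMB + EGF against 8553.5 and 9407 in IDMB + EGF + TCDD. In both pairs all arrays with TCDD were higher (log2 1.06 and 0.84), but neither difference was called (adjusted p = 0.392 and 0.520). Without EGF the Sod2 arrays with and without TCDD overlapped in both pairs. These comparisons share arrays with each other, so they are not independent.

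Other genes of the same pathways were followed in 5 lists of 74 genes, of which 59 are on the array and 49 passed the filter. Each gene is represented by its probe set with the highest mean over all arrays. For TCDD 3 rose and 3 fell, for EGF 2 rose and 3 fell, and for IDMB 13 rose and 10 fell, over the same averages and backgrounds as the 7 genes. This is 12.2%, 10.2% and 46.9% of the 49, beside 5.54%, 13.1% and 34.1% of all probe sets tested, so that the share for EGF was below that of all probe sets. The median log2 difference of the 49 genes was 0.05 for IDMB, 0.01 for TCDD and -0.01 for EGF.

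**Figure D4:**
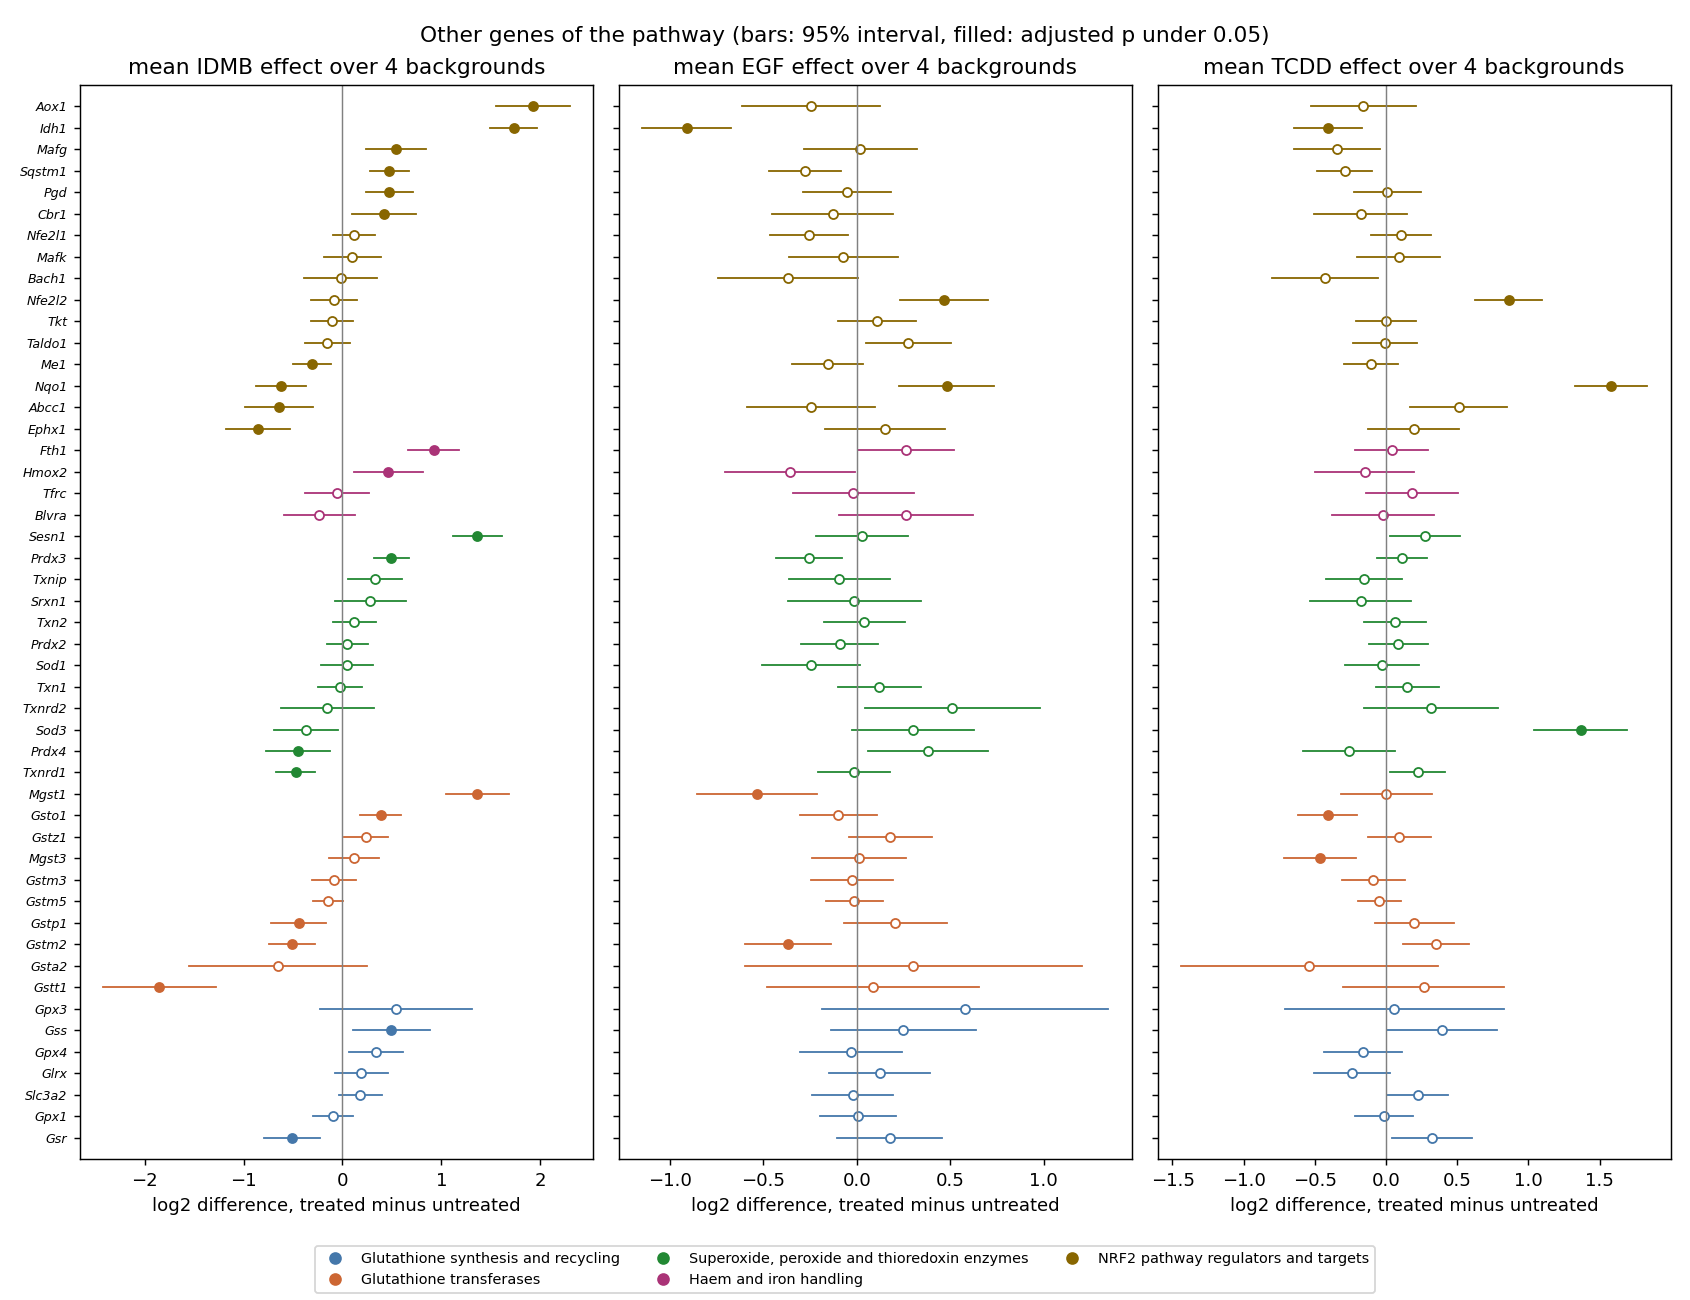
Mean log2 difference of 49 other genes of glutathione, peroxide, haem and NRF2 pathways for IDMB, EGF and TCDD (1 panel each), grouped by list in colour. Points are limma estimates, bars 95% intervals, and filled points passed an adjusted p of 0.05. For TCDD the points farthest to the right are those of Nqo1, Sod3 and Nfe2l2.

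Of the NRF2 pathway list, 16 genes were tested, and 18.8% of them were called for TCDD, against 5.54% of all probe sets. The share for EGF was 18.8% too, against 13.1% of all probe sets. For TCDD 2 rose and 1 fell (Idh1, log2 -0.41, adjusted p = 0.0461, kept in 3 of 18 fits with 1 array left out and 0.116 without TCDD 1). Nfe2l2 itself and Nqo1, a quinone reductase that is a textbook target of both NRF2 and the aryl hydrocarbon receptor, rose with TCDD. Nqo1 read 3406, 4102 and 5434 in UT and 18940.4 and 15074 in TCDD, and its mean TCDD effect was log2 1.58 (limma adjusted p = 4.71e-07). Nfe2l2 read 9274, 7772 and 7976 in UT and 18485 and 14059.8 in TCDD, with a mean effect of 0.86 (adjusted p = 0.000231). For both genes the arrays with and without TCDD did not overlap in any of the 4 backgrounds, but Nqo1 was not called in IDMB + EGF (log2 0.97, adjusted p = 0.155), nor Nfe2l2 in EGF (0.91, 0.216) or IDMB + EGF (0.76, 0.305). The calls for the mean TCDD effect held without any 1 of the 18 arrays. With EGF, Nfe2l2 was higher by 0.47 (adjusted p = 0.0135) and Nqo1 by 0.48 (0.0173, lost without TCDD 2 at 0.0539), and neither was called once the Gapdh ratio was a covariate (0.831 and 0.806). Idh1, a source of NADPH that glutathione reductase needs, was lower with EGF (log2 -0.91, adjusted p = 0.000354, and 0.369 with the Gapdh ratio as a covariate). With the mix 6 of the 16 rose and 4 fell (62.5% called, against 34.1% of all probe sets). Aox1, an aldehyde oxidase, rose by 1.93 (adjusted p = 3.88e-07) and Idh1 by 1.73 (7.71e-09). Ephx1, microsomal epoxide hydrolase, fell by 0.86 (0.000369), and Nqo1 was among the other genes that fell.

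Of 7 other genes of glutathione synthesis and recycling, 2 were called (28.6%), both with the mix, a share below the 34.1% of all probe sets called for it. Gsr, glutathione reductase, fell by 0.51 (limma adjusted p = 0.00676, and 0.745 with the actin ratio as a covariate). Gss, the enzyme of the last step of glutathione synthesis, had a difference of 0.49 (adjusted p = 0.0472), a call kept in only 4 of 18 fits with 1 array left out, with an adjusted p up to 0.14 without EGF+TCDD 1. Of 10 other transferases tested, 2 rose and 3 fell with the mix, where 15.5% of all probe sets rose and 18.6% fell. Gstt1, a theta class transferase, fell by 1.85 (adjusted p = 5.67e-05). It read 6539, 6117 and 3007 in UT and 1290.2, 496 and 219 in IDMB. Mgst1, a membrane-bound transferase, rose by 1.36 (3.52e-06), and Gstm2, a mu class relative of Gstm1, fell by 0.51 (0.00184, and 0.214 with the actin ratio). The transferases called for the other treatments were all lower. For TCDD the calls were those of Gsto1 (-0.41, adjusted p = 0.0207) and Mgst3 (-0.47, 0.0311). With 1 array left out the first was kept in 13 of 18 fits (at most 0.0609, without EGF+TCDD 1) and the other in 9 (at most 0.0875, without EGF 1). For EGF they were those of Mgst1 (-0.53, 0.0286) and Gstm2 (-0.37, 0.0359), each kept in 10 of 18 such fits (at most 0.0799 without IDMB + TCDD 2, and 0.0972 without EGF 2).

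Among 12 superoxide, peroxide and thioredoxin genes, Sod3, the extracellular superoxide dismutase, rose with TCDD by 1.37 (limma adjusted p = 7.02e-05). It read 7187, 7985 and 15526 in UT and 44220.2 and 41404 in TCDD, and 3803, 4364 and 6249 in IDMB and 18139 and 22627 in IDMB + TCDD. All arrays with TCDD were above all without it in both pairs. With EGF present the difference was smaller. Sod3 read 13270.6 and 10126 in EGF and 20885.9 and 20685.7 in EGF+TCDD (log2 0.84, adjusted p = 0.675), and 20156.6 and 14314.3 in IDMB + EGF and 17965.4 and 26770.7 in IDMB + EGF + TCDD (0.37, 0.968), where the arrays overlapped. Neither was called, and the TCDD by EGF interaction of Sod3 was called (log2 -1.53, limma adjusted p = 0.0141). That call was lost with the Gapdh ratio as a covariate. In that fit 1 probe set was called higher and 0 lower for the interaction, in place of 319 calls. The sums of fibroblast and macrophage markers given above also differed between TCDD and UT arrays, and their part in the TCDD differences of Sod3, Nqo1 and Nfe2l2 was not tested. The Gapdh ratio differed between those arrays too, and its part in the differences of these genes between TCDD and UT was not tested. Sod2, the mitochondrial form, was not called for TCDD. With the mix 2 of the 12 rose and 2 fell, and this share of 33.3% is about that of all probe sets (34.1%). Sesn1, a stress-induced sestrin, rose by 1.36 (adjusted p = 1.97e-07) and the mitochondrial peroxiredoxin Prdx3 by 0.49 (0.000239). Txnrd1, thioredoxin reductase, fell by 0.47 (0.000760). With the actin ratio as a covariate the calls of Prdx3 (0.119) and Txnrd1 (0.0999) were lost. In the haem and iron list 2 of 4 genes were called, both higher with the mix, where 15.5% of all probe sets were higher. Fth1, the ferritin heavy chain that stores iron, rose by 0.92 (2.15e-05, and 0.119 with the actin ratio). Hmox2, the constitutive relative of Hmox1, had a difference of 0.46 (0.0387), kept in 5 of 18 fits with 1 array left out and up to 0.105 without EGF+TCDD 1.

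The genes whose pattern over the 8 group means was most like that of each member were found by Pearson correlation of mean log2 values, among 6449 probe sets with 1 gene symbol. The best was Tead4 for Gclc (r = 0.986), Cetn3 for Gclm (0.986), Marcks for Gsta4 (0.984), Cxcl1 for Gstm1 (0.938), Errfi1 for Cat (0.989), Vps26b for Sod2 (0.971) and Ppy for Hmox1 (0.973). Next came Eif3d and Zfand5 for Gclc, Fam171a1 and Dynll1 for Gclm, Calml4 and Capza2 for Gsta4, Hccs and Shroom3 for Gstm1, Baiap2 and Tsc22d1 for Cat, Lcn2 and Wdr78 for Sod2, and Pim1 and Siah1a for Hmox1. The 8 means come from the same 18 arrays, and the best of so many genes over 8 points is high by selection. Between the members, the strongest relations were Gclc with Gsta4 (r = -0.961) and Gclm with Cat (-0.939), and Gclc with Gclm gave -0.815. Hmox1 had the weakest relations with the others, from -0.396 with Gclm to 0.564 with Sod2.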

How the data were processed

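RNA of 18 samples was read on 1-colour arrays of 12488 probe sets. The deposited values are signal intensities on a linear scale, per the labels, while the software behind them was not given in the sources used here. The 2% trimmed mean was 2501 to 2502 on every array, so the authors' values were already scaled when deposited, and they were used as deposited. Precision is limited by how many arrays there are. Values under 143.5, the 20th percentile, were set to that floor, and log2 was taken. A probe set was tested where at least 1 group mean reached 9.73, the median over all log2 values, which left 7134 probe sets of 5438 genes. Groups came from the sample titles. limma 3.58.1 in R 4.3.3 fitted 1 mean per group over all 18 arrays, with a variance trend (residual degrees of freedom 10, prior 6.03), and adjusted p by Benjamini-Hochberg within each of 18 comparisons.

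The 7 genes, the 5 pathway lists and the markers were chosen with earlier results of these data known. Named besides the 7 genes were, for each list and treatment, up to 3 called genes with the largest mean effect, the 3 genes most like each member, and 4 treatment checks. Gene positions and promoters are RefSeq's on GRCm38.p6. Of the probe sets 10855 had 1 gene symbol, 396 several and, controls aside, 1193 none, and the 66 controls were left out of the tests. Alternatives changed the scaling, floor, filter, variance trend, replicate block, control-probe covariate and arrays used.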

Additional observations from a re-analysis of the deposited data

How the results depend on the processing

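Of 26 called differences of the 7 genes over the 18 comparisons, 12 were called in every fit that left out 1 array of the groups compared, 5 under every other setting and 4 under both, and 0 changed sign. Of 136 differences that were not called, 7 were called under some setting. Replicate numbers are shared between groups by the titles. Samples of the same number deviated together to differing degrees (IDMB against UT, r = 0.438, 0.0589 and 0.248, and -0.101 to 0.246 in the other comparisons). This does not settle whether the numbers pair the samples, and they were not taken as pairs. With the replicate number as a block 2 members were called for EGF in UT in place of 1 (Sod2 besides Hmox1). For the TCDD by EGF interaction 3 were called in place of 0 (Sod2, Hmox1 and Gclc). Over all probe sets the block raised the calls from 395 to 575 for the mean TCDD effect and from 319 to 597 for that interaction. Members called for TCDD in IDMB fell from 1 to 0 with arrays scaled to the same median, without the filter or without the variance trend. They did so too with only the groups compared and with the Gapdh ratio as a covariate. In that order 5.35%, 2.76%, 5.48%, 1.96% and 3.74% of all probe sets were called, against 6.59% without these changes. Without the filter, 0 were called for EGF in UT (1.48% of probe sets) and 1 for IDMB in EGF+TCDD in place of 3 (2.79%). Fitting only the groups compared gave 0 for EGF in IDMB (1.01%). Those shares were 6.17%, 6.50% and 3.80% without these changes. Quantile normalization gave 1 for the mean TCDD effect in place of 0 (Gstm1, adjusted p = 0.0398). For the mean EGF effect, either control ratio as a covariate left 0 members and 0 pathway genes in place of 1 and 5, and 0 probe sets of all in place of 935. With the actin ratio the mean IDMB effect kept 2 of 5 members, 8 of 23 pathway genes and 448 of 2432 probe sets. IDMB in UT, TCDD, EGF and EGF+TCDD kept 2, 0, 1 and 0 members in that fit. The share of all probe sets called there was 6.76%, 2.94%, 6.25% and 1.42%, against 14.1%, 12.8%, 10.8% and 6.50% without the ratio. The mean EGF effect had 3 pathway genes without the filter.

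Leaving out 1 array gave 0 to 1 members for the mean TCDD effect, 1 for EGF and 5 to 6 for IDMB, 0 to 1 for TCDD in IDMB, 0 to 2 for EGF in UT, 0 to 1 for EGF in IDMB, 5 to 6 for IDMB in UT, 1 to 3 in TCDD, 2 in EGF and 0 to 1 in EGF+TCDD, and 0 to 1 for the TCDD by EGF interaction. Pathway genes numbered 3 to 7 for TCDD, 2 to 6 for EGF and 19 to 24 for IDMB. A group left with 1 array is assumed to vary like the others. Scaling to the same median moved the median of all probe sets for IDMB in TCDD from -0.08 to 0.08 and the share of higher calls from 51.0% to 69.9%, and for TCDD in UT that share from 50.5% to 36.2%. With only the groups compared, the calls of Gsta4 (0.077) and Sod2 (0.0804) for IDMB in UT, and those of Gclm for IDMB in TCDD (0.0848) and EGF (0.0603), were lost.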
